A study of Mus musculus with 2 samples.

Results

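Transcripts of the fibroblast growth factor (FGF) pathway and of the genes that restrain its downstream kinase ERK were compared between Mlesico and Mle29c, which the labels give as mouse epithelial cells. The gene set comprised every probe set of the expression array whose single annotated symbol was a Dusp, Spry, Spred, Fgf or Fgfr gene, or Etv4 or Frs2. This gave 125 probe sets for 60 genes, out of 45101 probe sets on the array and 18193 genes with a probe set of their own. No probe set was annotated to Frs2 alone, so the adaptor gene Frs2 was not analysed here. The set held 22 genes for FGF ligands, 5 for FGF receptors, 10 for ERK feedback inhibitors, 21 for other dual specificity phosphatases, Etv4, and Fgfr1op2, whose symbol matched although its product is not a receptor.

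Each line was measured on 1 array. Both grew in DMEM with 10% FBS (fetal bovine serum), no treatment or engineered allele is named, and Trizol-extracted RNA was converted to biotin-labelled cRNA. The series title concerns miR-29c in lung fibrosis, but the labels do not say whether Mle29c cells carry more or less miR-29c, how either line was made, or whether a line is 1 clone. Replicate spread is therefore unknown for every difference below, and none carries a p-value.

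FGFs are secreted ligands that bind receptor tyrosine kinases with the help of heparan sulfate, and the receptors signal through the adaptor Frs2 and the Ras, Raf, Mek and ERK kinases. ERK activity induces its own inhibitors: Sprouty and Spred proteins act on the path from receptor to Raf, and several Dusp phosphatases remove phosphate from ERK itself. In the lung, FGF signalling from mesenchyme to epithelium is known for branching of the airways, growth of the epithelium and repair of the alveoli.

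The deposited values are logarithms of the signal, taken here as log2, with each probe set centred on the midpoint of both arrays. A gene's level is therefore not in the values, and the pair of values of a probe set mirror each other around 0. Ratios are of Mle29c over Mlesico throughout, so a log2 ratio of 1 is a 2-fold higher signal in Mle29c. Weak signals vary widely on such arrays, so a coarse level class was read from the rounding of the numbers: high for a mean log2 level of 8 or more, middle for 4 to 8 and low below 4. The class was read from the sum of both values where that sum was not 0, and otherwise from the step of the numbers, which can place a probe set too high. From the counts of sums, 53.1% of the probe sets called high from the step alone are expected to be truly high, and 88.2% to lie at a level of 4 or more. For those called middle from the step, 74.9% are expected to lie at 4 or more. Of the 52 high-class probe sets of the gene set, 15 take their class from the sum. A gene's value is the median ratio of its probe sets in the high and middle classes, and a gene with at least 1 such probe set is called measured.

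Of the 60 genes, 49 were measured; the other 11 had only low-class probe sets and take no part in the counts. Among the 49, 6 had at least a 2-fold higher signal in Mle29c, 3 had at least a 2-fold lower one and 40 lay within 2-fold, with a median log2 ratio of 0.36. Over all 14828 measured genes of the arrays, 8.41% were at least 2-fold higher, 7.18% at least 2-fold lower and 15.6% past 2-fold in either direction, with a median of 0.00. The members' share past 2-fold, 18.4%, was near that background. Different probe sets of a gene had a pooled SD of 0.84 in log2 ratio over the 23 members with 2 or more measured probe sets, against 0.62 over the 6903 such genes of the arrays. Of the 23, 15 had all their measured probe sets on the same side of 0.

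Weakly detected probe sets differed most. Among members, 9 of 52 probe sets in the high class (17.3%) were past 2-fold, 13 of 37 in the middle class (35.1%) and 24 of 35 in the low class (68.6%). Over all single-gene probe sets the shares were 10.5%, 22.8% and 57.6%. The ligands were the weakest group, with 21 of 41 probe sets in the low class, against 9 of 39 for the other Dusp genes and 3 of 25 for the feedback genes.

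**Figure D1:**
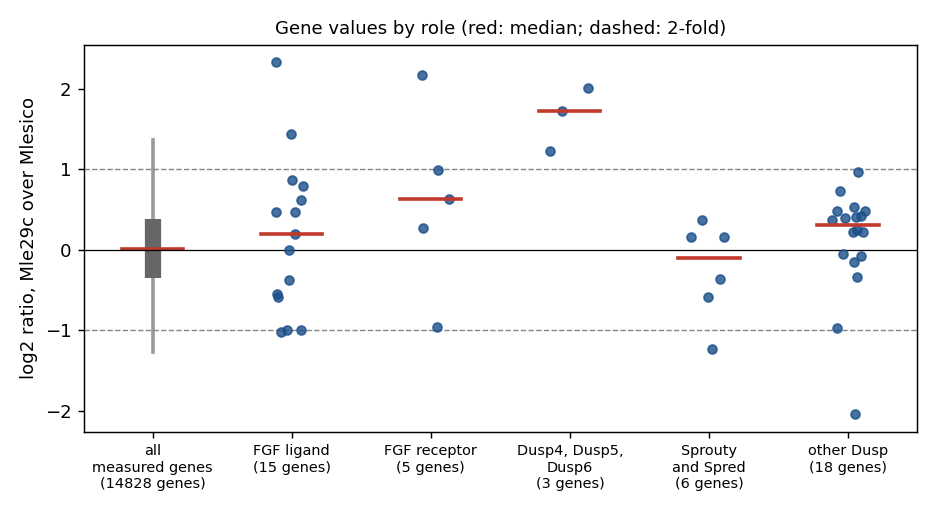
Gene values (log2 ratio of Mle29c over Mlesico, vertical axis) by role. Points are measured genes and red lines group medians; for all 14828 measured genes the thick bar spans percentiles 25 to 75 and the thin bar percentiles 5 to 95. Dusp4, Dusp5 and Dusp6 sit at 1.23 to 2.01, above the 2-fold line, while the other Dusp genes reach at most 0.96. Showing these genes apart from Sprouty and Spred was not planned.

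Among the ligand genes, 15 of 22 were measured, of which Fgf1 and Fgf16 were past 2-fold on the Mle29c side and Fgf10 on the Mlesico side. The remaining 12 lay within 2-fold, and the median of the 15 was 0.19. The 3 of 15 past 2-fold stand against 15.6% of all measured genes.

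Fgf1 encodes acidic FGF, which can bind all FGF receptors. Its 3 probe sets had centred log2 signals of -1.10, -1.16 and -1.54 in Mlesico and 1.10, 1.16 and 1.54 in Mle29c. The Mle29c array was the higher one in every Fgf1 probe set, and the gene's log2 ratio was 2.33 (5.02-fold), with probe sets from 2.20 to 3.08. The probe set at 3.08 is in the middle class from its sum; the other two take their class from the step. Fgf16, a ligand related to Fgf9, had a single probe set at -0.72 in Mlesico and 0.72 in Mle29c, a log2 ratio of 1.44. That probe set is in the middle class from the step alone, so it may be too high by class.

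Fgf10, a mesenchymal ligand of Fgfr2 that drives lung budding, stood at 0.51 in Mlesico and -0.51 in Mle29c, a log2 ratio of -1.02 from 1 middle-class probe set. This is at the edge of the 2-fold threshold: Fgf10 was at -0.95 after the median of its chromosome was subtracted. Fgf18, at -0.99, and Fgf23, a hormone that acts on phosphate handling in the kidney, also at -0.99, lay just inside the threshold. With the chromosome medians subtracted they stood at -0.75 and -1.31.

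The other paracrine ligands differed less. Fgf7, the keratinocyte growth factor and a second mesenchymal ligand of Fgfr2, had a log2 ratio of 0.47 in high-class probe sets at 0.26 and 0.67. Fgf3 was at 0.86, with probe sets spread from 0.06 to 1.26. Fgf9, known in the lung from epithelium and mesothelium, was at 0.61 from 1 measured probe set, but its low-class probe set stood at -3.73, so the gene has no firm direction. Fgf17 was at -0.58 and Fgf4 at -0.38, each from 1 measured probe set. The low-class probe set of Fgf17 stood at -1.45. Those of Fgf4 ran from -2.33 to 1.33, so Fgf4 has no firm direction either.

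Of the intracellular FGF homologous factors, which bind sodium channels rather than FGF receptors, Fgf11 was at 0.79, Fgf13 at 0.46, Fgf12 at 0.19 and Fgf14 at -0.01. All 4 rested on 1 measured probe set each and lay within 2-fold. Low-class probe sets of Fgf12 ran from -3.08 to 0.86 and those of Fgf14 from -1.96 to 2.84, so neither gene has a firm direction. The low-class probe set of Fgf11 stood at -0.39 and that of Fgf13 at 0.94. Of the endocrine ligands, which travel in the blood, Fgf21 was at -0.55 beside Fgf23.

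Among the receptor genes, Fgfr2 was higher in Mle29c and no receptor was 2-fold lower. Fgfr2, the epithelial receptor for Fgf7 and Fgf10, had centred log2 signals of -1.09 and -1.44 in Mlesico and 1.09 and 1.44 in Mle29c in the pair of probe sets that differed. Both take their class from the sum. The third probe set was at -0.03 and 0.03, so the arrays were nearly equal there. The gene's log2 ratio was 2.17 (4.50-fold), with probe sets at 0.05, 2.17 and 2.89. Only the near-equal probe set is left when probe sets with shared or multi-transcript names are dropped, and Fgfr2 is then within 2-fold.

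Fgfr4 and Fgfr1 had probe sets on both sides of 0. Fgfr4 was at 0.99, with measured probe sets at -2.91, 0.99 and 1.32, and at 1.06 with the median of its chromosome subtracted. Fgfr1, the receptor typical of mesenchymal cells, was at 0.63, with a pair of probe sets at 0.63 and 0.76 and another at -2.16. Neither gene has a settled direction in these arrays.

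Fgfr3 was the receptor gene with the lowest value, at -0.95, and its probe sets were close together at -0.86 and -1.05. Both take their class from the sum. Fgfrl1, a receptor-like protein that lacks the kinase, was at 0.27. The 5 receptor genes had a median of 0.63 and 1 of 5 past 2-fold, near the 15.6% of all measured genes; the median was -0.20 when probe sets were averaged. Fgfr1op2, no receptor despite its symbol, was at 0.81, with all 3 probe sets between 0.68 and 1.13, and at 0.49 with the median of chromosome 6 subtracted.

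**Figure D2:**
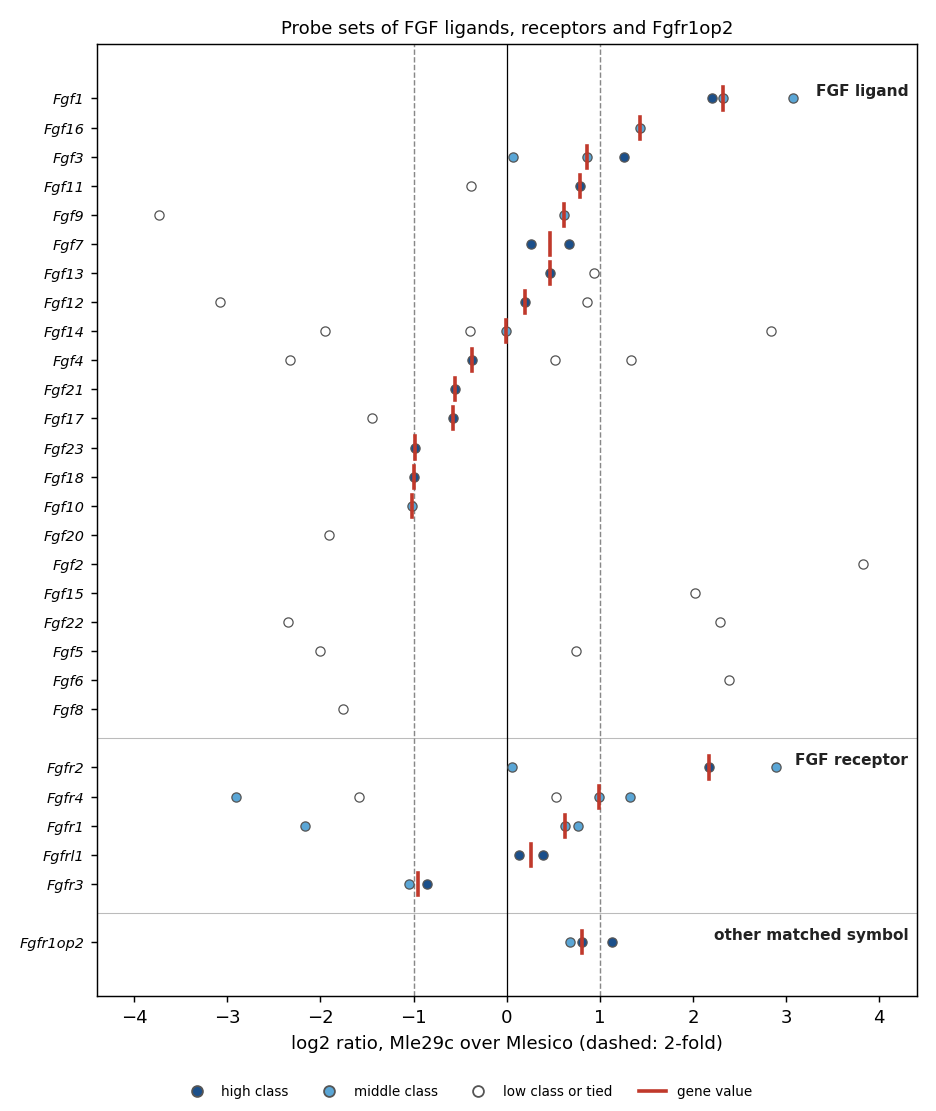
Log2 ratio of Mle29c over Mlesico (horizontal axis) for each probe set of the FGF ligand and receptor genes and Fgfr1op2 (rows). Dark points are in the high class, light points in the middle class and open points low or tied; the red mark is the gene value. All 3 Fgf1 probe sets lie between 2.20 and 3.08, whereas Fgfr4 spans -2.91 to 1.32.

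With high-class and middle-class probe sets, the feedback genes split by family. This division was not planned, as the plan held all feedback genes as 1 set. Dusp4, Dusp5 and Dusp6, phosphatases that ERK activity induces and that act on ERK, all exceeded 2-fold on the Mle29c side, with a median of 1.72. None of the 6 measured Sprouty and Spred genes was 2-fold higher, 1 was 2-fold lower, and their median was -0.11. Across the 9 measured feedback genes the median was 0.15, with 3 higher and 1 lower (44.4% past 2-fold, against 15.6% of all measured genes). Each Dusp of the 3 rests on 1 probe set. With classes from the sum alone, 5 feedback genes were left, with 2 higher and 1 lower. The higher genes were then Dusp6 at 1.72 and Spred1 at 1.19, each from 1 probe set, and Spred3 was lower. Dusp4 and Dusp5 drop out under that setting, so the split by family is not seen there.

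Dusp6, a cytoplasmic phosphatase that prefers ERK, had a centred log2 signal of -0.86 in Mlesico and 0.86 in Mle29c, a log2 ratio of 1.72 (3.30-fold). Its class, high, comes from the sum. Dusp5, a nuclear phosphatase that prefers ERK, stood at -1.01 and 1.01, a log2 ratio of 2.01 (4.04-fold). Dusp4, a nuclear phosphatase of ERK and other MAP kinases, stood at -0.62 and 0.62, a log2 ratio of 1.23 (2.35-fold). Mle29c was the higher array for all 3. Dusp4 and Dusp5 are in the high class from the step, and Dusp5 was at 1.75 with the median of chromosome 19, 0.27, subtracted.

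Upstream sequences are given as examples for feedback genes that were higher (Dusp5, Dusp6) and for genes that were not. The latter are Spry1, Spry2 and, from the other Dusp genes, Dusp1. Dusp4 had no entry, and the windows of Spred1, Spred2 and Spred3 were read but are not printed. The sequences are the 250 bases before the transcript start in RefSeq, build GRCm38.p6, read 5′ to 3′ on the gene's strand. Entries were at hand for 44 of the 60 genes, in 55 windows. Capitals mark matches, on either strand, to CCGGAAG (a strict form of the ETS factor site) or TGACGTCA (the cAMP response element). They also mark TGANTCA (an AP-1 site), GGGCGG (a GC box) and the CArG box of serum response factor. The CArG box was added after the Dusp5 sequence was seen. Shorter or variant ETS sites were not searched. The windows lie at chr19:53528895-53529144 (plus strand) for Dusp5, chr10:99262981-99263230 (plus) for Dusp6, chr3:37639697-37639946 (plus) for Spry1, chr14:105896820-105897069 (minus) for Spry2 and chr17:26508473-26508722 (minus) for Dusp1.
Dusp5: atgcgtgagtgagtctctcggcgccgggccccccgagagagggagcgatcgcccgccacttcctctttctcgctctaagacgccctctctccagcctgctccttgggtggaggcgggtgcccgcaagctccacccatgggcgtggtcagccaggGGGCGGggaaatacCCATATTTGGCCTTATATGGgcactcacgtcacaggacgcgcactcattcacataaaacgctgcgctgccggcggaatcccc
Dusp6: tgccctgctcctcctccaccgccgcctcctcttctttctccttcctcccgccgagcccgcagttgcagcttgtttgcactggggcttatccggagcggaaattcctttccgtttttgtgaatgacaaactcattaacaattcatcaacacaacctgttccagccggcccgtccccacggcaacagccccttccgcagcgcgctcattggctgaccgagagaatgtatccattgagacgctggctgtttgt
Spry1: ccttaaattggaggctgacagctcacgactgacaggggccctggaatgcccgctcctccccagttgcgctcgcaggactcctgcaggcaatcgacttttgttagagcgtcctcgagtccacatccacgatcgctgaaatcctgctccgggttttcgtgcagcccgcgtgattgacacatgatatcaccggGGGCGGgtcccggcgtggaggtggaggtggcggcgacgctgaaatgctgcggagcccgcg
Spry2: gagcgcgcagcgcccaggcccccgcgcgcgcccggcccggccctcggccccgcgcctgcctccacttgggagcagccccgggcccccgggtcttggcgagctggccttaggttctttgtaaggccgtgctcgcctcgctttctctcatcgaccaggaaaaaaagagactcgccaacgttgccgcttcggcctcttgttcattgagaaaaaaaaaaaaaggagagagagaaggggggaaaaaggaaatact
Dusp1: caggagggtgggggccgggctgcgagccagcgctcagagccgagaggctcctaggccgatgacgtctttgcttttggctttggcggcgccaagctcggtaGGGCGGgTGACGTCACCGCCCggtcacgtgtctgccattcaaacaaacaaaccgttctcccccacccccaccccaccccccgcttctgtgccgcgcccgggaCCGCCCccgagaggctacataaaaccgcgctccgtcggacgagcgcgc

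In the Dusp5 window, with the base just before the transcript start counted as -1, CArG boxes begin at -82 and -72, with the letters CCATATTTGG and CCTTATATGG, and they touch end to end. A CArG box occurred in 1 of the 55 windows of the gene set, that of Dusp5, and in 1.47% of all 32851 windows of this length. Dusp6 and Spry2 had no match to the 5 motifs as written, which does not show that they lack shorter ETS sites. Dusp1 had 1 cAMP response element, at -143, and 3 GC boxes, while Dusp5 and Spry1 had 1 GC box each. The cAMP response element occurred in 2 windows of the set (Dusp1 and Dusp8) and in 1.55% of all windows, the GC box in 36 of the 55 windows of the set and in 32.7% of all windows. The ETS letters CCGGAAG were in 2 windows of the set and in 6.91% of all, and the AP-1 letters in 3 and in 6.75%. These are matches of letters and no binding was measured.

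Sprouty genes, which encode membrane-associated inhibitors induced by FGF, were within 2-fold. Spry1 stood at 0.29 in Mlesico and -0.29 in Mle29c, a log2 ratio of -0.58 from 1 probe set. Spry2 had a log2 ratio of -0.36, with probe sets at -0.50 and -0.23 whose classes come from the sum. Mlesico was the higher array for both genes, by less than 2-fold. Spry4 was at 0.15, but its measured probe sets lay at -0.51 and 0.82, on opposite sides of 0. Spry3 had only a low-class probe set.

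Spred genes encode Sprouty-related proteins that hold Raf activation in check with neurofibromin. Spred1 was at 0.36 over 7 measured probe sets, of which 5 lay between 0.26 and 1.19 and the other two at 0.01 and -0.13. Spred2 was at 0.15, with 4 of 5 probe sets between 0.04 and 0.31 and 1 at -1.35. Spred3 had 1 middle-class probe set, at 0.61 in Mlesico and -0.61 in Mle29c, a log2 ratio of -1.23, and was the single feedback gene 2-fold lower.

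Etv4 encodes an ETS transcription factor that is a standard readout of FGF and ERK activity. Its pair of high-class probe sets differed, at 0.30 and 1.64. The gene value of 0.97 lay just under 2-fold, and it was 1.22 once the median of chromosome 11, -0.25, was subtracted.

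The other Dusp genes give the contrast to the feedback set. Of 21, 18 were measured; none was 2-fold higher and 1 was 2-fold lower, and 17 lay within 2-fold (5.56% past 2-fold, against 15.6% of all measured genes). Their median of 0.31 was higher than the median of the full feedback set by 0.15. It was lower than the median of Dusp4, Dusp5 and Dusp6, a subset that was not planned, by 1.42. These are differences between groups of genes on the same pair of arrays, which are not replicates, so no test was made.

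Of the MAP kinase phosphatases in this group, 6 of 7 were measured and all 6 were within 2-fold. Dusp1, an early stress-induced phosphatase that acts mainly on p38 and JNK, was at 0.40 and Dusp2, a nuclear phosphatase found mainly in immune cells, at 0.24. The p38 and JNK phosphatases Dusp8, Dusp10 and Dusp16 stood at 0.23, -0.05 and 0.22. Dusp7, a cytoplasmic relative of Dusp6 that acts on ERK, was the highest of the group at 0.96, with probe sets at 0.39, 0.96 and 1.38 that all take their class from the sum. Moving Dusp1, Dusp2, Dusp7 and Dusp9 to the feedback set left 4 of 12 feedback genes past 2-fold, with a median of 0.30.

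Among the atypical Dusp genes, which lack the MAP kinase binding part of the family, 12 of 14 were measured and their median was 0.38. Dusp26 had a log2 ratio of -2.04, from values of 1.02 in Mlesico and -1.02 in Mle29c in 1 middle-class probe set. The class comes from the step, and the probe set has a multi-transcript name. With classes from the sum alone, or without shared or multi-transcript names, the count of other Dusp genes past 2-fold was 0. Dusp14 was next lowest at -0.97, or -0.73 with the median of chromosome 11 subtracted. The others lay between Dusp19 at -0.34 and Dusp18 at 0.73, whose pair of probe sets stood at 0.71 and 0.75. Between them were Dusp12 at -0.15, Dusp28 at -0.07, Dusp22 at 0.42, Dusp13 and Dusp21 at 0.49 and Dusp23 at 0.53. Dusp3, a phosphatase of ERK and JNK, had its 3 probe sets, in the high class from the step, between 0.24 and 0.48. Dusp11, which acts on RNA, had its pair at 0.31 and 0.44. The probe sets of each gene lay close together, and both genes were within 2-fold. Probe sets share the same pair of arrays, so their closeness does not measure replicate spread.

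**Figure D3:**
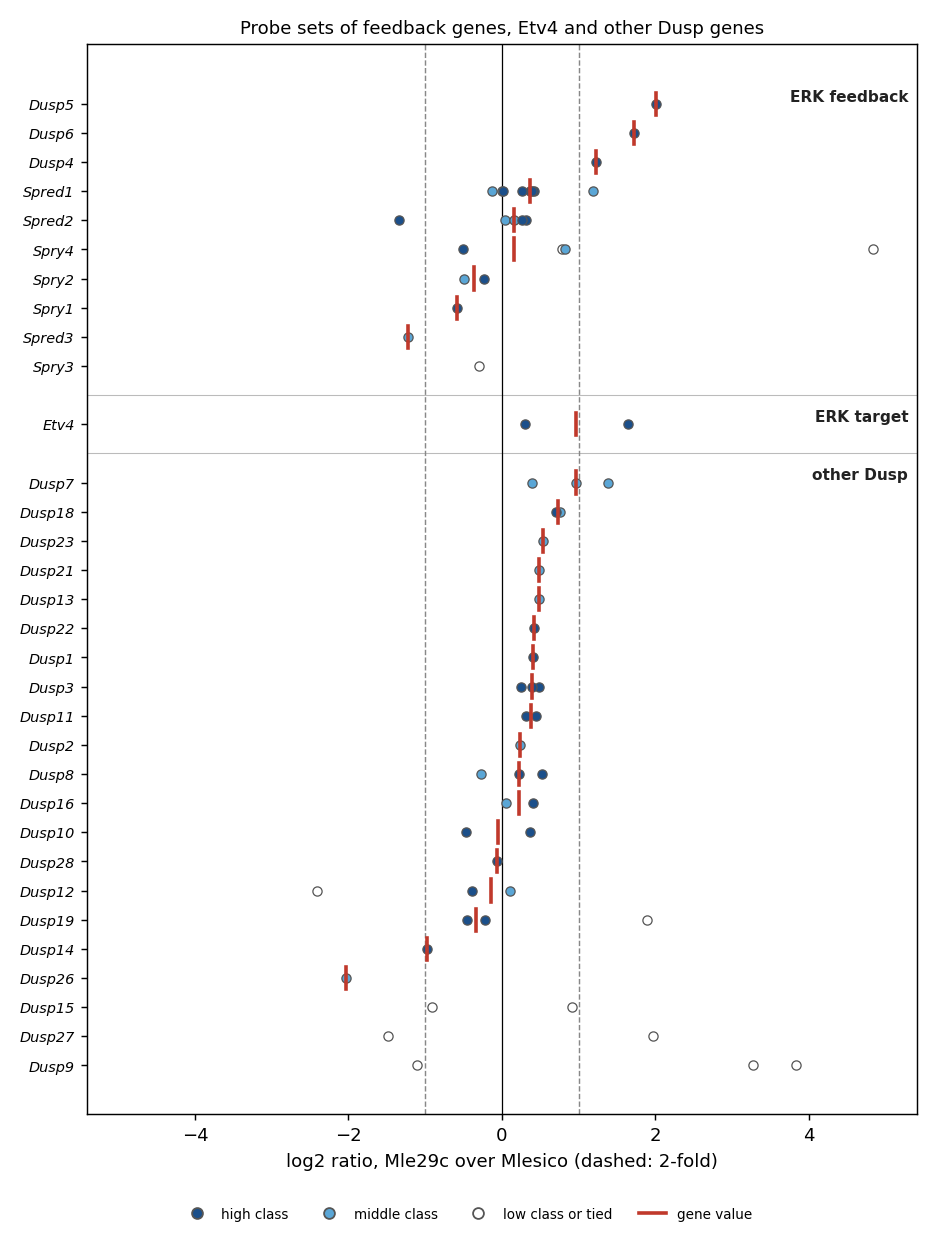
Log2 ratio of Mle29c over Mlesico (horizontal axis) for each probe set of the ERK feedback genes, Etv4 and the other Dusp genes (rows), with point shades for level class and the red mark for the gene value. The gene values of Dusp4, Dusp5 and Dusp6 lie at 1.23, 2.01 and 1.72; the gene values of all Sprouty genes lie within 2-fold.

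Further genes of the pathway were taken from a list of 50, of which 43 had a probe set of their own and 41 were measured; the other 7 were not analysed here. Of these, 4 exceeded 2-fold on the Mle29c side and 4 on the Mlesico side (19.5% past 2-fold, against 15.6% of all measured genes), with a median of -0.05. All 18 measured transducers between receptor and ERK, such as Grb2 at -0.30, Sos1 at -0.66, Braf at -0.16 over 9 probe sets and Map2k1 at 0.50, were within 2-fold. The genes past 2-fold code for surface or extracellular proteins or are targets of the pathway.

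At the surface, Flrt2 and Flrt3, leucine-rich membrane proteins that bind FGF receptors, were at -1.57 and -1.59. The 3 Flrt2 probe sets, from -1.86 to -0.95, and the pair of Flrt3, at -1.68 and -1.49, were all in the high class and all lower in Mle29c. Il17rd, which encodes the membrane antagonist Sef, was at 1.74, with probe sets at 0.92 and 2.56. Gpc1, a heparan sulfate proteoglycan, was at 4.16 and Sulf1, an extracellular enzyme that trims heparan sulfate, at -3.20, each from 1 measured probe set; the median over all 3 Sulf1 probe sets was -1.81. The syndecan genes Sdc1 and Sdc4 stood at 0.39 and 0.52.

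Among 8 measured targets, 2 were at least 2-fold higher and 1 at least 2-fold lower (37.5% past 2-fold, against 15.6% of all measured genes). Etv5, the close relative of Etv4, was at 1.94; its 3 probe sets ranged from 1.77 to 1.98. The cyclin gene Ccnd1 was at 1.22 (range of 3 probe sets 1.06 to 1.56). Fosl1, which encodes the AP-1 subunit Fra-1, was at -1.93 from 1 middle-class probe set. The immediate early genes Egr1 and Fos were at 0.08 and 0.38, Myc at 0.18, Ier3 at 0.98 and Phlda1 at -0.52.

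**Figure D4:**
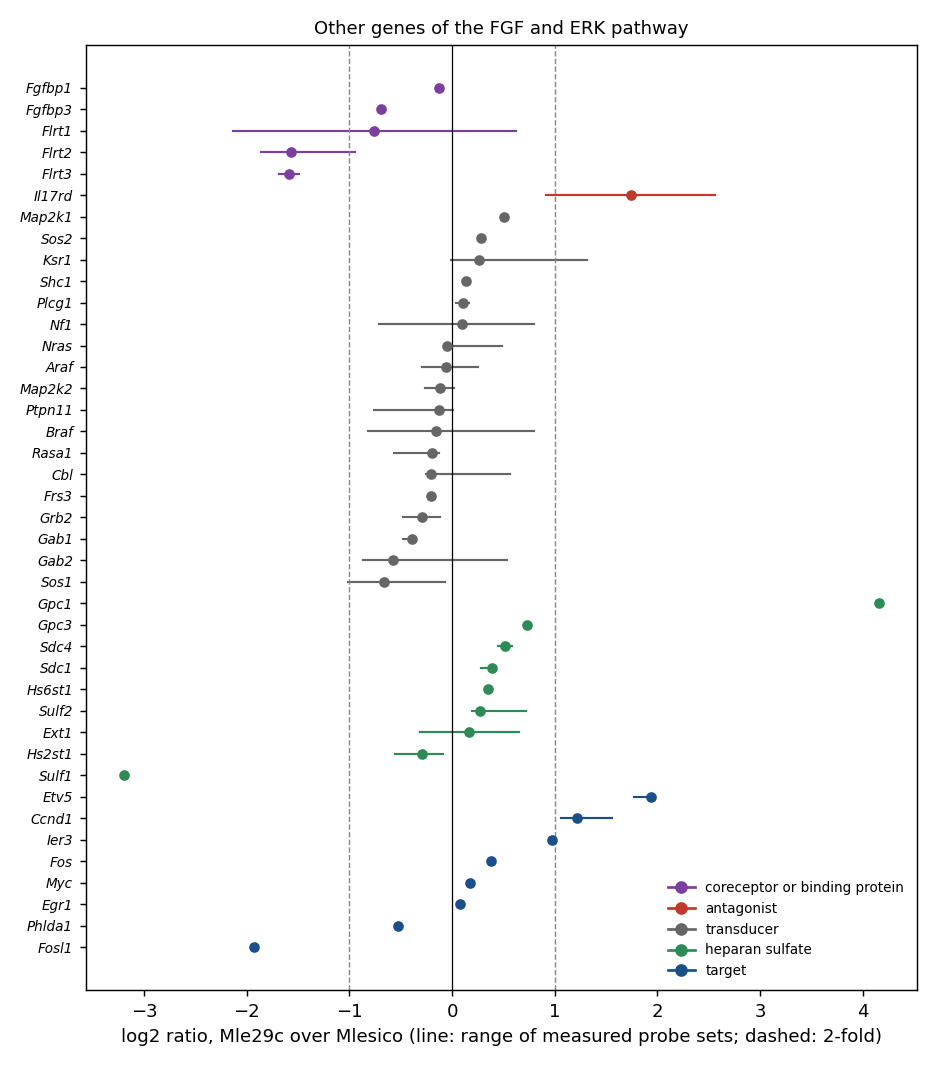
Log2 ratio of Mle29c over Mlesico (horizontal axis) for 41 other genes of the FGF and ERK pathway (rows), with lines for the range of a gene's measured probe sets and colours for the role. Transducers lie between -0.66 and 0.50; Gpc1, at 4.16, and Sulf1, at -3.20, stand farthest out.

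The labelled epithelial identity was set against marker genes. Of 10 epithelial markers 8 were measured, with a median of -0.08 and 5 below 0. Krt8 and Krt19 were in the high class, while Cldn4 and Ocln had low-class probe sets alone. A high-class probe set was found for 2 of 10 epithelial, 5 of 8 alveolar type 2 and 4 of 8 mesenchymal markers. For the endothelial list this was 2 of 5, and for the immune list 0 of 5. Cdh1 was at 1.46, Krt8 at 0.63, Krt19 at -0.06, Cldn7 at -0.09, Krt18 at -0.20 and Epcam at -0.52. Esrp1, a splicing regulator known to favour the epithelial form of Fgfr2, was at -4.51 from 1 probe set, and its relative Esrp2 at 0.50. All 7 measured markers of alveolar type 2 cells, out of 8, were above 0, with 3 at least 2-fold higher and a median of 0.62; over all 14828 measured genes, 7471 were above 0 and 8.41% at least 2-fold higher. Of 8 mesenchymal markers 7 were measured, with a median of 0.11, from Col1a1 at -3.41 to Col3a1 at 1.55, and the other 5 within 2-fold. Immune and endothelial lists had 3 of 5 measured each, with Ptprc, Tyrobp, Pecam1 and Tie1 in the low class alone. The measured immune markers were Cd68 at -0.99, Adgre1 at 0.58 and Laptm5 at 1.02, whose probe sets ran from -1.60 to 2.06. The measured endothelial markers were Tek at -1.57, Kdr at 0.01 and Cdh5 at 0.05. The part of cell identity in the ratios of the FGF genes was not tested; in such bulk RNA, fewer cells of a kind and less RNA per cell cannot be told apart.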

How the data were processed

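Mlesico and Mle29c RNA was hybridised to 1 oligonucleotide array per line. Signals per probe set came from MAS5 per the submitters' processing notes; version and settings are not given in the sources used here. Deposited values were read as log2 and sum to 0 over the arrays within 1e-06 for each probe set, so they had been centred by the authors. Their log base is unstated: log10 would make the widest difference 2.09e+10-fold, and natural logs would enlarge every fold. Ratios, level classes and gene medians were computed from these values with Python 3.11.15, NumPy 2.4.6 and pandas 2.3.3. A run on simulated data required planted gene ratios to come back, with nearly the same ratio in every probe set of a gene. That setting all but fixed the outcome, and the run put no requirement on the level classes.

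Gene names come from the array's platform annotation (34945 probe sets with a single gene, 932 with several, 9160 with none), updated through a GRCm38.p6 gene table that held 34741 of the 34945. Genes were counted at 2-fold, with no test, since each line has 1 array; the number of arrays limits the precision. The members and lists were chosen with earlier results of these data known. Every gene of the set could be named, and of the list of other pathway genes those past 2-fold and the extremes; other genes of that list and the markers were named as examples after their values were seen. Alternatives were the probe sets used, the threshold, the log base, centring on chromosome medians, averaging and the grouping of Dusp genes.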

Additional observations from a re-analysis of the deposited data

How the results depend on the processing

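The counts of genes past 2-fold among 15 measured ligands (3), 5 receptors (1), 9 feedback genes (4), 18 other Dusp genes (1) and 41 other pathway genes (8) moved with the probe sets and the threshold. With every probe set kept, 10 of 22 ligands and 2 of 21 other Dusp genes were past 2-fold, and the ligand median was 0.0201. High-class probe sets alone gave 0 of 12 other Dusp genes, 5 other pathway genes and a receptor median of 0.27, and classes from the sum alone gave 0 of 9 and 5. Without probe sets of shared or multi-transcript names, the counts were 0 of 4 receptors, with a median of -0.37, and 0 of 15 other Dusp genes; the 6 MAP kinase phosphatases also had 0. With the median of each chromosome subtracted, 2 receptors were past 2-fold and the feedback median was 0.37, and averaging probe sets put the receptor median at -0.20. At 1.5-fold the counts were 8 ligands, 4 receptors, 4 feedback genes, 4 other Dusp genes and 13 other pathway genes. At 4-fold they were 1 ligand, 1 receptor, 1 feedback gene, 1 other Dusp gene and 2 other pathway genes. Natural logs gave 7 ligands, 3 receptors, 4 feedback genes, 4 other Dusp genes and 12 other pathway genes. Dropping probe sets or changing the threshold alters counts by construction; beyond that, the cause was not tested.

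Of 49 measured member genes, 47 stayed within 1 SD between probe sets (0.62) with every probe set kept, the others being Fgf9 (-1.56) and Spry4 (0.80). Most of the 49 had no low-class or tied probe set to add, so their values could not move. All 49 stayed within 1 SD with chromosome medians subtracted. The largest of these medians among the members was 0.32, on chromosome 6, so this outcome was fixed in advance. The members past 2-fold had no low-class probe sets to add back, and their chromosome medians were smaller in size than their ratios. Their signs could therefore not change under either setting. No paired analysis was possible because each line has 1 array. A level below about 4 on the log2 scale limits what these arrays show for the 11 genes not measured.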

Other observations

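Genes with low-class probe sets alone had wide ratios that entered no count. Fgf2, basic FGF, stood at 3.82, Fgf6 at 2.39 and Fgf15 at 2.02, while Fgf20 was at -1.91 and Fgf8, a ligand of early development, at -1.76, each from 1 probe set. The pair of Fgf22 probe sets lay at 2.29 and -2.35, and Fgf5 also had probe sets on both sides of 0. Dusp9, a phosphatase of ERK, had probe sets at 3.84, 3.26 and -1.10, the pair of Dusp27 lay at -1.48 and 1.97, and that of Dusp15 at -0.92 and 0.92. A low-class probe set of Spry4 stood at 4.84, against -0.51 and 0.82 in its measured probe sets. Over all single-gene probe sets in the low class, 57.6% were past 2-fold.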
